A study of Mus musculus with 8 samples.

Results

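A set of 10 genes of cellular antioxidant defence was followed, namely *Nqo1*, *Hmox1*, *Gclm*, *Gclc*, *Txnrd1*, *Srxn1*, *Prdx1*, *Gpx1*, *Sod2* and *Cat*. They were chosen by gene name, and all 10 were found among the 54532 genes of the read count table. RNA sequencing (RNAseq) had been performed on mG+ (GFP+) cells sorted by FACS from 8-month-old female mice that all carried *Tie2e-cre* and the *mTmG* reporter, which switches a cell from membrane Tomato to membrane GFP once Cre has acted in it or its ancestors. EC-*Tert*-KO mice were Tie2e-cre; TERTfl/fl; mTmG and WT mice were Tie2e-cre; TERT+/+; mTmG, so that both genotypes carried the same Cre, driven by the *Tie2e* promoter of endothelial cells (EC). Each genotype gave 1 library from subcutaneous adipose tissue (SAT) on high fat diet (HFD), 1 from SAT on chow, 1 from visceral adipose tissue (VAT) on chow and 1 from gastrocnemius muscle on chow, and whether cells of several mice were pooled is not stated in the sources used here.

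The 8 libraries held 6214269 to 18855772 counts. *Tert*, the targeted gene, had 114 counts in WT and 0 in EC-*Tert*-KO cells of SAT on HFD, 70 and 11 in SAT on chow and 24 and 7 in muscle. VAT did not follow its labels, with 9 counts in the library labelled EC-*Tert*-KO (14344720 counts in all) and 3 in the one labelled WT (9389345). Counts this low, in libraries of unlike depth, cannot settle whether the VAT labels are right. All 11 endothelial markers had counts in every library, with a summed level of 273 to 2027 CPM, the counts scaled to a common library size. Markers of other cells were present too, led by macrophage markers in VAT (9018 and 9140 CPM, against 188 to 867 CPM elsewhere) and neutrophil markers in muscle (27371 and 31853 CPM, against 57 to 258 CPM elsewhere). In such bulk samples, fewer cells of a type and less RNA per cell cannot be told apart.

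NRF2, encoded by *Nfe2l2*, is the transcription factor that switches on much of this defence. KEAP1 holds NRF2 in the cytoplasm and sends it for degradation until oxidants or electrophiles modify KEAP1, after which NRF2 enters the nucleus, pairs with small MAF proteins and binds antioxidant response elements, while BACH1 occupies such sites as a repressor. Haem oxygenase 1 (*Hmox1*) breaks down haem, NQO1 reduces quinones, GCLC and GCLM form the enzyme that starts glutathione synthesis, and TXNRD1, SRXN1 and PRDX1 belong to the thioredoxin and peroxiredoxin system. GPX1 and catalase (*Cat*) remove hydrogen peroxide and SOD2 removes mitochondrial superoxide, and the genes of these enzymes are less tightly tied to NRF2. In EC this defence is known for limiting oxidant damage to the vessel wall.

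The promoter sequences of the members were searched for the core of the antioxidant response element. The reason was that *Hmox1*, *Txnrd1* and *Srxn1* were all higher in VAT than in SAT on chow, as described after the sequences. RefSeq windows on build GRCm38.p6, 250 bases before to 50 bases after a start site, were at hand for 8 members in 10 windows, and *Hmox1* and *Gclc* were not in that table. The letters TGACNNNGC on either strand were found in a window of 4 members, *Gclm*, *Txnrd1*, *Srxn1* and *Prdx1*, and in 12.4% of all 32851 windows. The match began 134 bases before the start in *Gclm*, 133 before in *Prdx1* and 92 before in the second of 3 *Txnrd1* windows, whereas in *Srxn1* it lay after the start, at position 29. With the looser letters TGANNNNGC, which 41.3% of all windows held, *Srxn1* also had matches beginning 158, 57 and 45 bases before its start. The looser letters were also found 84 bases before the start in another of the 3 *Txnrd1* windows. In *Prdx1* they were found at position 16 after the start, and both of these lie outside the stretches shown. No match was found in the windows of *Nqo1*, *Gpx1*, *Sod2* and *Cat*, which says only that these letters are not in those windows. For the 2 members called between VAT and SAT that had a window, the 250 bases before the start are shown (*Srxn1*, chr2:152105274-152105523, and *Txnrd1*, chr10:82858956-82859205, both + strand), and for *Gclm* (chr3:122245398-122245457, + strand) and *Prdx1* (chr4:116685441-116685500, + strand) the 60 bases around the match. Capitals mark TGACNNNGC on either strand, or TGANNNNGC in *Srxn1*, and the sequences read 5′ to 3′.
Srxn1: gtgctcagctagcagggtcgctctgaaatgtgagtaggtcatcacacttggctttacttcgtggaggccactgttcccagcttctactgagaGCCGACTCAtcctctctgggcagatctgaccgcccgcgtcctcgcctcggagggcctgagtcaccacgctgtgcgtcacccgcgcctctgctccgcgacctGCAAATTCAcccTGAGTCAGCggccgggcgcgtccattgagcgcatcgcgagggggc
Txnrd1: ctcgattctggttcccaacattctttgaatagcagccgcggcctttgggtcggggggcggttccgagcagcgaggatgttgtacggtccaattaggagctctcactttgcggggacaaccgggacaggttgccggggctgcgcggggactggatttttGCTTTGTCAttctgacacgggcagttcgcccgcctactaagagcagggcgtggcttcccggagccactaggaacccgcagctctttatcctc
Gclm: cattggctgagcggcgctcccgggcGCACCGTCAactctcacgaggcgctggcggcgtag
Prdx1: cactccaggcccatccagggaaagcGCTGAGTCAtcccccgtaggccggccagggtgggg

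The members called by a test differed between tissues. *Hmox1*, *Txnrd1* and *Srxn1* were higher in VAT than in SAT of chow-fed mice, and no member was called lower. Levels are given as CPM scaled by the trimmed mean of M values (TMM).

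**Figure D1:**
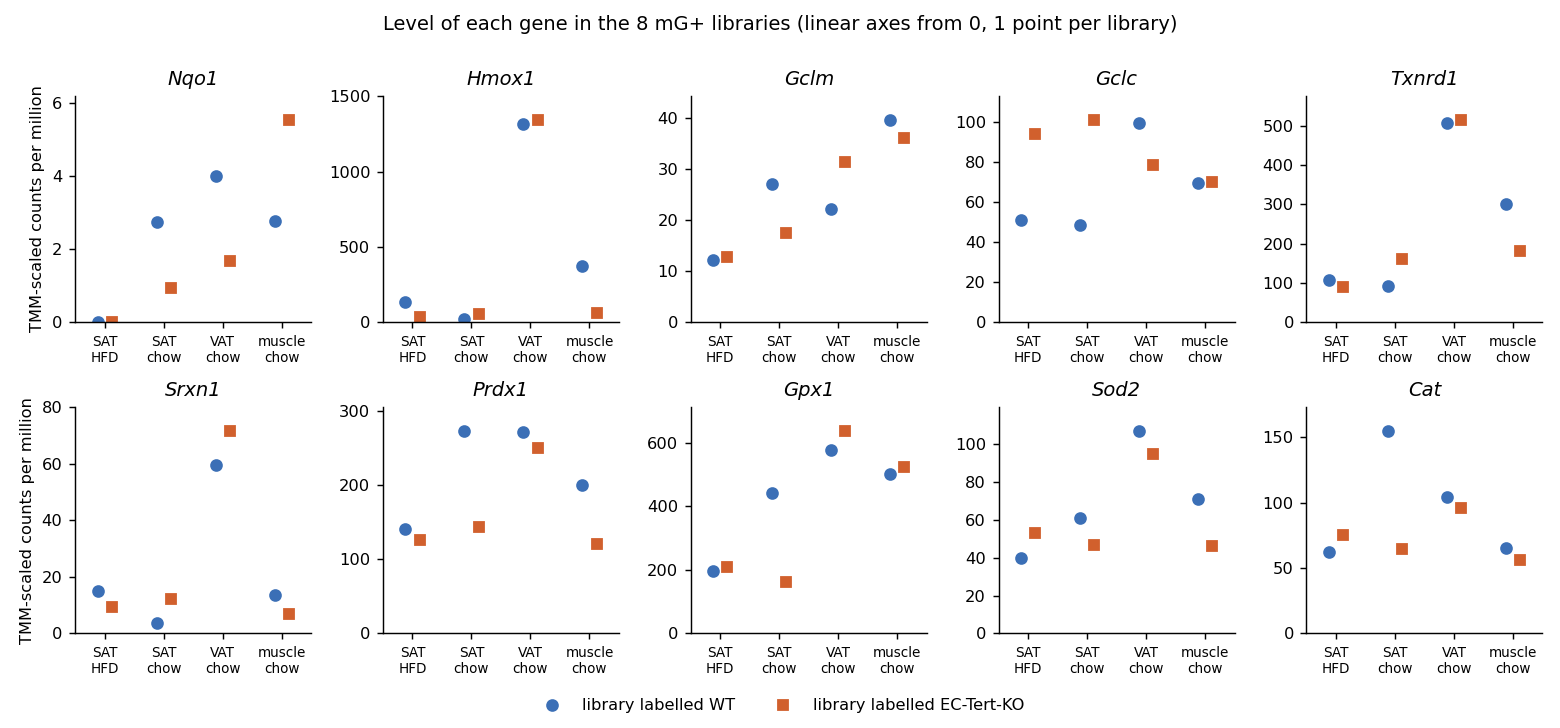
Level of each of the 10 genes (vertical axes, TMM-scaled CPM, linear from 0) in the 8 libraries, grouped by tissue and diet, with circles for WT libraries and squares for libraries labelled EC-Tert-KO. Hmox1, Txnrd1, Srxn1, Gpx1 and Sod2 have both VAT points above all 6 other points, while Nqo1 sits at 0 in both libraries of SAT on HFD.

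*Hmox1* had a 59.6-fold range over the libraries (ENSMUSG00000005413, GRCm38 chr8:75093621-75100589, + strand). Its level was 133 CPM in WT and 32.4 CPM in EC-*Tert*-KO cells of SAT on HFD, 22.5 and 51.9 CPM in SAT on chow, 1316 CPM in WT and 1344 CPM in the library labelled EC-*Tert*-KO of VAT, and 371 and 59.5 CPM in muscle. Both VAT libraries were above the other 6, whose ranges overlapped between neighbouring groups. By the edgeR quasi-likelihood test over all 8 libraries, *Hmox1* was 32.2-fold higher in VAT than in SAT on chow (log2 fold change 5.01 ± 0.96 SE, adjusted p = 0.0288).

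*Txnrd1* (ENSMUSG00000020250, chr10:82833951-82897712, + strand) encodes the cytosolic thioredoxin reductase. It was measured at 107 and 89.4 CPM in SAT on HFD (WT and EC-*Tert*-KO), 91.8 and 160 CPM in SAT on chow, 508 CPM (WT) and 515 CPM (library labelled EC-*Tert*-KO) in VAT, and 302 and 180 CPM in muscle. VAT was highest and muscle next, each separate from the group below it, while the SAT groups overlapped. The VAT to SAT difference on chow was 4.04-fold (log2 2.02 ± 0.41 SE, adjusted p = 0.0355).

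*Srxn1* (ENSMUSG00000032802, chr2:152105516-152111376, + strand) encodes sulfiredoxin, which restores over-oxidised peroxiredoxins. Its levels were 15.0 and 9.27 CPM in SAT on HFD, 3.65 and 12.3 CPM in SAT on chow, 59.6 CPM (WT) and 71.6 CPM (library labelled EC-*Tert*-KO) in VAT, and 13.5 and 6.71 CPM in muscle. Only the 2 VAT libraries stood clear, and the other 3 groups overlapped. *Srxn1* was 8.29-fold higher in VAT than in SAT on chow (log2 3.05 ± 0.68 SE, adjusted p = 0.045).

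These 3 of 10 members compare with 3.13% of the 16971 genes tested that were called higher in VAT, and 5% (849 genes) were called in either direction. The members had been chosen with earlier results of these data known, so the comparison is a description only. Of the members, 9 had a log2 fold change above 0 and *Cat* was at -0.07. The median over the members was 0.78, and over all genes tested it was -0.13, a value that another scaling (DESeq2 size factors) moved to 0.04. Set within each genotype, the VAT to SAT log2 ratio was 5.87 in WT and 4.69 between the libraries labelled EC-*Tert*-KO for *Hmox1*, 2.47 and 1.69 for *Txnrd1*, and 4.02 and 2.54 for *Srxn1*. *Sod2* (1.88-fold, log2 0.91 ± 0.34 SE, adjusted p = 0.176) and *Gpx1* (2.11-fold, log2 1.08 ± 0.47 SE, adjusted p = 0.241) did not pass the test. Both were called by DESeq2, which called 5 members, beside 2307 of the 16971 genes tested. *Srxn1* was not called with library totals in place of TMM (2 members called), nor *Txnrd1* without the EC-*Tert*-KO library of SAT on HFD (2 members called), and with either VAT library left out no member was called by edgeR, with 4 members at an unadjusted p under 0.05 in each case.

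**Figure D2:**
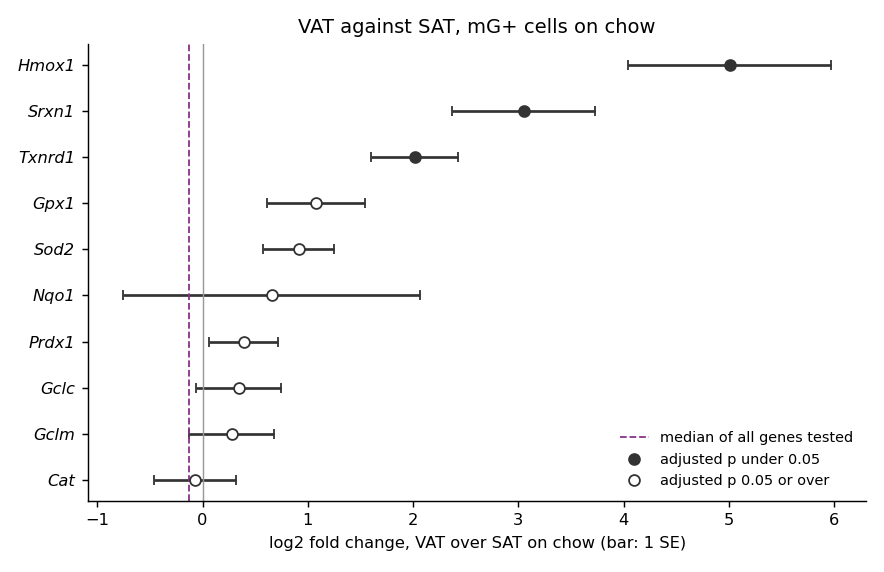
Log2 fold change of each member between VAT and SAT on chow (horizontal axis) with 1 standard error from the edgeR fit, filled where the adjusted p was under 0.05. Hmox1, Srxn1 and Txnrd1 are filled, at 5.01, 3.05 and 2.02, and the dashed line is the median of all genes tested, -0.13.

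Marker genes of other cells moved with the same contrast. All 8 macrophage markers were called higher in VAT than in SAT on chow, among them *Cd163* (log2 5.33), *Mrc1* (4.69) and *Adgre1* (3.48), and their summed level was 9018 and 9140 CPM in VAT against 442 and 867 CPM in SAT on chow, with none at 0. Of 11 endothelial markers, 7 were called higher as well, while 5 of 5 T cell markers and 4 of 4 B cell markers were called lower. Lower too were 3 of 4 epithelial markers (list median -6.05, summed level 211 and 166 CPM in SAT on chow, 4.77 and 4.90 CPM in VAT). In SAT on chow T cell markers summed to 2014 and 769 CPM and B cell markers to 1550 and 881 CPM. Endothelial markers there summed to 506 and 619 CPM. Adipocyte markers stayed under 10 CPM in sum in every library. Between WT and EC-*Tert*-KO libraries the macrophage sum went from 308 to 188 CPM for SAT on HFD, from 867 to 442 CPM for SAT on chow and from 698 to 325 CPM for muscle. All 3 called members were lower in the EC-*Tert*-KO library for SAT on HFD and for muscle, and higher there for SAT on chow. The part of these cells in the members' levels was not tested.

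**Figure D3:**
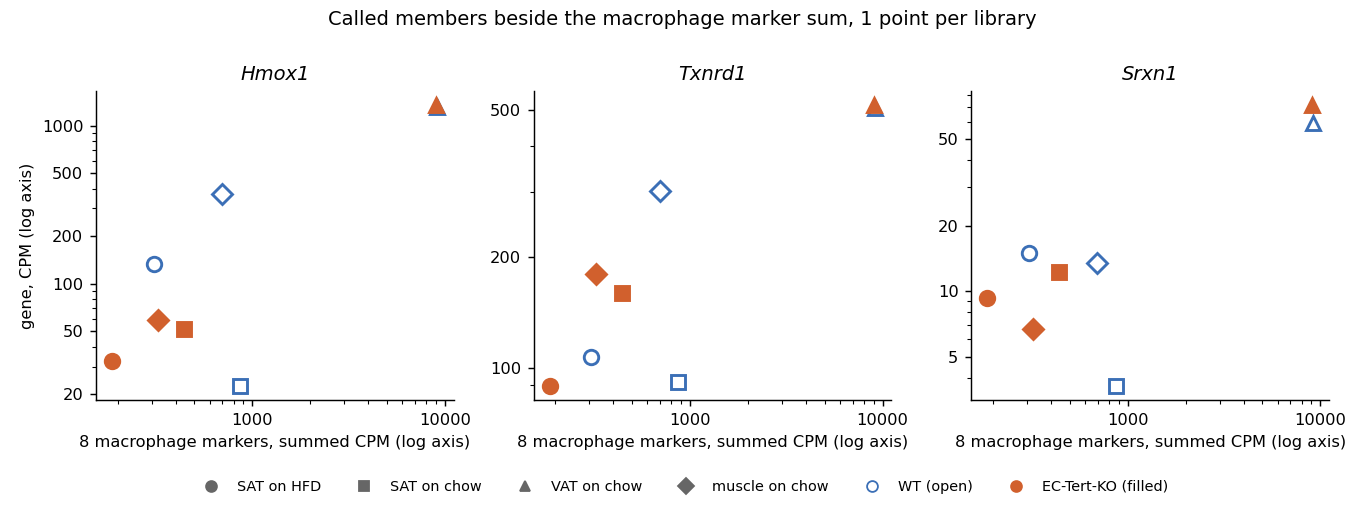
Level of Hmox1, Txnrd1 and Srxn1 (vertical log axes, CPM) against the summed level of 8 macrophage markers (horizontal log axes, CPM), 1 point per library, open for WT and filled for EC-Tert-KO. Both VAT libraries lie at the upper right of each panel, at 9018 and 9140 CPM of markers, and the 6 others lie between 188 and 867 CPM of markers.

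Among the other members, the genes of glutathione synthesis were at log2 0.34 (*Gclc*) and 0.28 (*Gclm*) between VAT and SAT on chow and did not pass the test. *Gclc* (ENSMUSG00000032350, chr9:77754535-77794485, + strand) ranged from 48.6 to 101 CPM, both ends being SAT on chow (WT and EC-*Tert*-KO), so that its 4 groups overlapped. *Gclm* (ENSMUSG00000028124, chr3:122245557-122270732, + strand) was highest in muscle, at 39.6 CPM in WT and 36.0 CPM in EC-*Tert*-KO cells, followed by 22.1 to 31.3 CPM in VAT, 27.0 and 17.4 CPM in SAT on chow and 12.1 and 12.8 CPM in SAT on HFD. Muscle and SAT on HFD were each separate from the next group for *Gclm*, and no contrast called it. An antisense gene, *Gm17494*, overlaps *Gclm*, with 108 counts over the 8 libraries against 2731 for *Gclm*, and *Eid3* lies within *Txnrd1* on the same strand, with 983 counts against 24935; whether counting used strand is not given in the sources used here.

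The genes of the peroxide and superoxide enzymes were detected in every library. *Gpx1* (ENSMUSG00000063856, chr9:108338903-108340343, + strand) was at 195 and 210 CPM in SAT on HFD, 443 and 161 CPM in SAT on chow, 575 CPM (WT) and 636 CPM (library labelled EC-*Tert*-KO) in VAT and 501 and 523 CPM in muscle, with VAT and muscle separate and the SAT groups overlapping. *Sod2* (ENSMUSG00000006818, chr17:13006846-13040063, + strand) ranged from 39.8 to 70.9 CPM in the other groups and stood at 107 and 95 CPM in VAT. *Prdx1* (ENSMUSG00000028691, chr4:116685544-116700822, + strand), a cytosolic peroxiredoxin, ranged from 120 CPM (EC-*Tert*-KO, muscle) to 272 CPM (WT, SAT on chow), and neighbouring groups overlapped. *Cat* (ENSMUSG00000027187, chr2:103453849-103485160, - strand) ranged from 56.4 CPM (EC-*Tert*-KO, muscle) to 155 CPM (WT, SAT on chow). Per kilobase of the gene length given in the count table, *Gpx1* had the highest median level over the libraries (328 CPM per kb), followed by *Prdx1* (56.5), *Hmox1* (55.1), *Cat* (26.9), *Txnrd1* (24.0), *Gclc* (19.7), *Sod2* (5.70), *Srxn1* (4.57), *Gclm* (3.91) and *Nqo1* (1.42).

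*Nqo1* (ENSMUSG00000003849, chr8:107388225-107403206, - strand) was the least abundant. It had 44 counts (WT) and 15 counts (EC-*Tert*-KO) in SAT on chow, 36 (WT) and 23 (library labelled EC-*Tert*-KO) in VAT, 45 and 75 counts in muscle, and 0 counts in both libraries of SAT on HFD. Against a floor of 3 counts per HFD library, and with the chow count taken as measured, its level in SAT was at least 6.28-fold higher on chow than on HFD in WT and at least 4.01-fold higher in EC-*Tert*-KO cells. With the counting error of the chow libraries included, the upper 95% limit of the HFD to chow log2 ratio of *Nqo1* was -2.29 in WT and -1.53 in EC-*Tert*-KO cells. *Nqo1* was not called between diets (adjusted p = 0.497, edgeR), and 18.7% of the 4289 genes with a mean of 15 to 75 counts over the chow libraries were likewise at 0 in both HFD libraries. Marker lists moved with diet in the same libraries. All 4 epithelial markers had values below 0 for HFD against chow (median -2.65, summed level 13.9 and 26.4 CPM on HFD against 211 and 166 CPM on chow), as did all 8 macrophage markers (median -1.37) and all 11 endothelial markers (median -1.33). None of these markers was called by edgeR. Of them, 3, 8 and 7 were at an unadjusted p under 0.05, beside 9.29% of all genes tested. DESeq2 called 2 of each list, beside 260 genes in all. Of 9 neutrophil markers, 7 were below 0 (median -1.41), with 5 at an unadjusted p under 0.05 and *Mpo* called by DESeq2. T cell (median -0.58) and B cell markers (-0.66) were all below 0 and all 6 stromal markers above 0 (0.42). The HFD libraries had 16076 (WT) and 16034 (EC-*Tert*-KO) genes with counts, against 19802 to 24688 in the chow libraries. The part of these features in the *Nqo1* values was not tested.

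The other contrasts between tissues and diets called no member by edgeR. Between muscle and SAT on chow, 215 genes were called (1.27% of those tested), with 0 members at an unadjusted p under 0.05 and 0 called by DESeq2; *Hmox1* was at log2 2.03 ± 0.91 SE (adjusted p = 0.456) and *Txnrd1* at 0.92 ± 0.41 SE (adjusted p = 0.444). Without the EC-*Tert*-KO library of SAT on chow, *Txnrd1* and *Cat* were called there, and without the WT library *Gpx1* was. Between muscle and VAT, 343 genes were called (2.02%). At an unadjusted p under 0.05 were 4 members (*Hmox1*, *Txnrd1*, *Srxn1* and *Sod2*), beside 12.8% of all genes tested. DESeq2 called 1255 genes there, among them *Hmox1* and *Srxn1*. The edgeR values there were -2.98 ± 0.91 SE for *Hmox1* (adjusted p = 0.178) and -2.69 ± 0.67 SE for *Srxn1* (adjusted p = 0.0987), and leaving out either SAT library on chow gave 3 called members (*Hmox1*, *Srxn1* and *Txnrd1*). Between HFD and chow in SAT, 0 genes were called (0%), 1577 genes and 1 member (*Nqo1*) were at an unadjusted p under 0.05, and DESeq2 called 260 genes and 0 members. Within WT the HFD to chow log2 ratio was 2.56 for *Hmox1*, 2.03 for *Srxn1*, 0.22 for *Txnrd1* and 0.07 for *Gclc*. It was -1.31 for *Cat*, -1.18 for *Gpx1*, -1.15 for *Gclm*, -0.95 for *Prdx1* and -0.61 for *Sod2*. Within EC-*Tert*-KO it was -0.68 for *Hmox1*, -0.40 for *Srxn1*, -0.84 for *Txnrd1*, -0.10 for *Gclc*, -0.44 for *Gclm* and -0.20 for *Prdx1*. There it was 0.39 for *Gpx1*, 0.22 for *Cat* and 0.18 for *Sod2*. Each ratio compares 1 library with 1 other and was not tested. These contrasts share libraries and are set side by side only.

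Other genes of the pathway were read in the same fit. Of 9 regulators of NRF2, 2 were called higher in VAT than in SAT on chow, *Nfe2l2* (log2 2.11 ± 0.46 SE, adjusted p = 0.0431) and *Bach1* (3.11 ± 0.69 SE, adjusted p = 0.044), the activator and the repressor of the same sites. The median of the 9 was 1.51. At an unadjusted p under 0.05 were 6 of them, beside 20.7% of all genes tested. DESeq2 called 6, adding *Sqstm1*, *Mafk*, *Mafg* and *Maff*, beside 2307 genes in all. *Keap1* was at -0.63 ± 0.45 SE (adjusted p = 0.485). *Nfe2l2* was measured at 107 and 89.4 CPM in SAT on HFD, 73.0 and 160 CPM in SAT on chow, 498 CPM (WT) and 503 CPM (library labelled EC-*Tert*-KO) in VAT, and 312 and 191 CPM in muscle, the same order of groups as *Txnrd1*. *Bach1* was at 689 CPM (WT) and 600 CPM (library labelled EC-*Tert*-KO) in VAT and at 30.2 to 212 CPM in the other 6 libraries.

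Of 18 genes of glutathione synthesis and use, 2 were called higher in VAT, *Gsr* (glutathione reductase, log2 1.46) and *Gstm1* (1.88, a glutathione transferase with close paralogs whose reads may be shared), and *Mgst2* was called lower (-2.47). The list median was 1.24, beside -0.13 for all genes. Of 6 genes of superoxide-producing oxidases, 2 were called higher in VAT, *Cybb* (1.76), which encodes a part of the phagocyte NADPH oxidase, and *Xdh* (2.04), which encodes xanthine oxidoreductase. All 6 genes of haem and iron handling had values above 0 (median 1.26) and none was called by edgeR, with 3 at an unadjusted p under 0.05 and 4 called by DESeq2; *Slc40a1* (ferroportin, the iron exporter) was at log2 2.89 (adjusted p = 0.051) and *Blvrb* at 1.75 (adjusted p = 0.0642). None was called by edgeR among 10 thioredoxins and other peroxiredoxins (0 at an unadjusted p under 0.05, 0 by DESeq2, median -0.17), with *Prdx3* at -1.05 and *Prdx4* at 0.76. None was called among 3 other superoxide dismutase genes (0 and 0, median -0.39, *Sod3* at 0.48 and *Ccs* at -0.44). Of 6 NADPH supply genes none was called (1 and 1, median 0.45, *Idh1* at 1.83 and *Me1* at 0.83), nor was any of 8 other detoxification genes (3 and 2, median 0.71, *Osgin1* at 1.49 and *Cbr3* at 1.49).

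**Figure D4:**
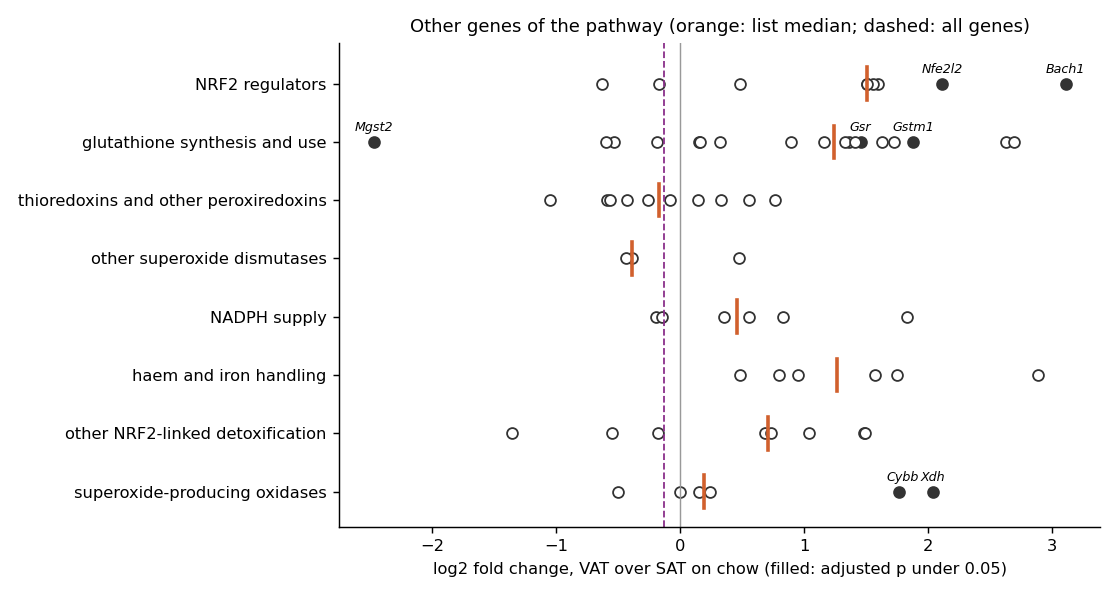
Log2 fold change between VAT and SAT on chow (horizontal axis) for each gene of 8 pathway lists, filled and named where the adjusted p was under 0.05, with the list median in orange and the median of all genes (-0.13) dashed. Called genes are found in 3 of the lists, Nfe2l2 and Bach1 to the right among the regulators and Mgst2 alone to the left.

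In muscle against SAT on chow 1.27% of all genes were called. The same lists had 3 called genes for glutathione (*Gsr* 3.10, *Gstm1* 1.95, *Mgst1* 2.60) and 1 for the peroxiredoxins (*Prdx5* 2.37). They had 3 for the oxidases (*Cybb* 2.28, *Ncf1* 2.11, *Xdh* 2.03), and all of these genes were higher in muscle. DESeq2 called 5, 1 and 4 genes of these lists, beside 1063 genes in all. It also called 3 NADPH supply genes (*Tkt*, *Pgd* and *G6pdx*), 1 haem and iron gene and 1 other detoxification gene. In muscle against VAT, *Gsr* (1.65), *Mgst2* (3.54) and *Ncf1* (1.96) were called, all higher in muscle, beside 2.02% of all genes. DESeq2 called 1255 genes there, among them 3 glutathione genes, 3 NADPH supply genes and 1 peroxiredoxin gene. The others were 2 regulators, 2 haem and iron genes, 2 oxidase genes and 1 other detoxification gene. All 9 neutrophil markers were called higher in muscle in both contrasts. Against SAT, 7 of 11 endothelial markers were called higher in muscle as well (median 2.16). Against VAT, all 8 macrophage markers were called lower in muscle (median -4.59) and 3 of 4 B cell markers higher (median 2.60). The part of these cells in the values of the lists and of the members was not tested.

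The effect of *Tert* KO on the members was then compared across the 4 pairs. No member was called, beside 1 gene in all (0.00589%), 277 genes and 0 members at an unadjusted p under 0.05, and 19 genes and 0 members called by DESeq2. Of the 10 members, 8 had a log2 value below 0, with a median of -0.23 against 0.03 for all genes. Marker lists also leaned one way in this contrast, with no marker called by edgeR. All 8 macrophage markers were below 0 (median -0.68, 5 at an unadjusted p under 0.05), all 6 stromal markers (median 0.96, 4 at that level) and all 5 mural markers (median 1.34, 4 at that level, *Myh11* called by DESeq2) were above 0, and all 4 muscle fibre markers were below 0 (median -2.53, 2 at that level, *Acta1* and *Ckm* called by DESeq2). Their part in the members' values was not tested. The member nearest to the threshold was *Prdx1*, with a lower level in the EC-*Tert*-KO library of all 3 pairs outside VAT and a log2 ratio of -0.12 in VAT by its label (log2 over the 4 pairs -0.49 ± 0.23 SE, unadjusted p = 0.0693, adjusted p = 1). Without the VAT pair it was at -0.59, and again 0 members were called by edgeR, 0 were at an unadjusted p under 0.05, and the median over the members was -0.21 against 0.07 for all genes. None of the 8 pathway lists had a called gene for genotype by edgeR or by DESeq2, and 1 gene of the glutathione list was at an unadjusted p under 0.05.

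Within a pair there is 1 library per genotype and no test, so the ratios describe those libraries, with 95% intervals that cover counting error only. *Hmox1* differed in direction between pairs. Its EC-*Tert*-KO to WT log2 ratio was -2.04 in the HFD pair of SAT (95% interval -2.21 to -1.87) and 1.20 in its chow pair (1.02 to 1.39). In VAT by its label it was 0.03 (-0.0037 to 0.063), and for muscle it was -2.64 (-2.75 to -2.53), where 6039 counts in WT compare with 807 in EC-*Tert*-KO cells. In muscle, erythroid markers went from 691 to 111 CPM and macrophage markers from 698 to 325 CPM between the same libraries. In SAT on HFD macrophage markers went from 308 to 188 CPM and erythroid markers from 31.8 to 42.2 CPM. In SAT on chow macrophage markers went from 867 to 442 CPM and erythroid markers from 70.9 to 18.4 CPM, while *Hmox1* was higher. In VAT by its labels erythroid markers went from 33.9 to 66.3 CPM and macrophage markers from 9140 to 9018 CPM. The part of these cells in the *Hmox1* ratios was not tested.

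In SAT on HFD, *Hmox1* was the only one of 9 members at least 2-fold lower, where 16.4% of all genes were, and none was at least 2-fold higher, where 18.1% were. In SAT on chow, 3 of 10 members were at least 2-fold higher in the EC-*Tert*-KO library, namely *Srxn1* (log2 1.74, 1.32 to 2.19), *Hmox1* and *Gclc* (1.06, 0.94 to 1.18), and 3 were at least 2-fold lower, namely *Nqo1* (-1.51, -2.50 to -0.68), *Gpx1* (-1.46, -1.53 to -1.40) and *Cat* (-1.26, -1.37 to -1.15). Among all genes of that pair, 26.1% were at least 2-fold higher and 19% lower. In VAT only *Nqo1* lay past 2-fold, at -1.23 (-2.07 to -0.46) by its labels and so lower in the KO-labelled library, where 6.83% of genes were lower and 8.26% higher. In muscle *Hmox1* and *Srxn1* (-1.01, -1.38 to -0.65) were at least 2-fold lower, beside 6.07% of genes, and no member was at least 2-fold higher, beside 8.76%. With library totals in place of TMM, *Txnrd1* passed 2-fold in SAT on chow (1.03), and the share of genes past 2-fold that were higher became 69.5% instead of 57.8% in the SAT pair on chow and 69.5% instead of 59.1% in the muscle pair.

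**Figure D5:**
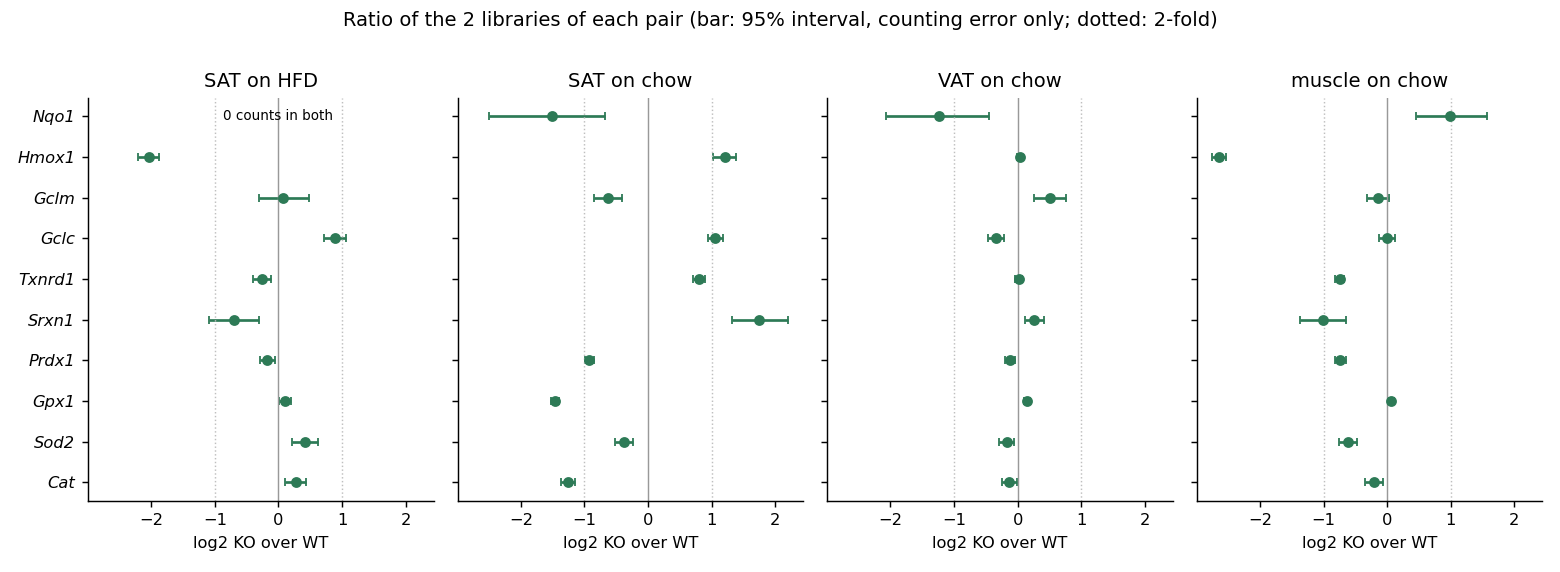
EC-Tert-KO to WT log2 ratio of each member in each of the 4 pairs (horizontal axes), with 95% intervals for counting error only and dotted lines at 2-fold. Hmox1 is left of the lower line in SAT on HFD and in muscle, right of the upper line in SAT on chow and at 0.03 in VAT.

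The SAT pair on chow was the one in which members diverged most, and other genes and marker lists diverged there as well. In this pair 26.1% of all genes were at least 2-fold higher in the EC-*Tert*-KO library and 19% at least 2-fold lower. Of the 9 regulators, 5 were at least 2-fold higher there (*Nfe2l2* 1.13, *Bach1* 2.0, *Mafg* 2.09, *Mafk* 1.57 and *Maff* 2.28). At least 2-fold lower were 5 of 10 thioredoxins and peroxiredoxins, 4 of 6 haem and iron genes, 3 of 6 NADPH supply genes and 2 of 8 other detoxification genes. The 18 glutathione genes had 5 higher and 4 lower, the 3 other superoxide dismutase genes 1 and 1, and the 6 oxidase genes 0 and 1. All 6 stromal markers were at least 2-fold higher there (538 CPM in WT and 2404 CPM in EC-*Tert*-KO cells in sum), as were 4 of 5 mural markers. At least 2-fold lower were 8 of 8 neutrophil markers with enough counts (247 CPM in WT and 57 CPM in EC-*Tert*-KO cells in sum), 4 of 5 T cell markers, 4 of 5 erythroid markers and 4 of 8 macrophage markers. Gene length moved with the ratios of this pair too. The median log2 ratio was -0.52 over 2763 genes under 1500 bases and 0.20 over 10298 genes of 3000 bases or more, a comparison chosen after the members' ratios were seen. The part of these features in the members' ratios was not tested.

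The genes whose level followed each member most closely over the 8 libraries were listed by Pearson's r of log2 CPM, as a description over libraries that share tissues and genotypes. They were *Ccrl2* (0.995), *Nfe2l2* (0.994) and *Mcl1* (0.993) for *Txnrd1*, *Gdf15* (0.979), *Avpi1* (0.978) and *Rnf149* (0.968) for *Hmox1*, and *Uap1* (0.990), *Plau* (0.986) and *Tubb6* (0.985) for *Srxn1*. For *Nqo1* they were *Scnn1a*, *Mansc1* and *Eps8l2* (0.983 to 0.994), for *Gclm* *Pqlc3*, *Gdap2* and *Vapa* (0.983 to 0.986), and for *Gclc* *Ddhd1*, *Atxn7* and *9830144P21Rik* (0.960 to 0.967). For *Prdx1* they were *Itm2c*, *Ctss* and *Npc2* (0.971 to 0.974), for *Gpx1* *Vsir*, *Smpdl3a* and *Aqp9* (0.972 to 0.982), for *Sod2* *Nectin2*, *Clec4a1* and *Ticam1* (0.975 to 0.982), and for *Cat* *Tmem173*, *Pla2g16* and *Pigs* (0.960 to 0.972). The search covered 12367 genes whose mean count over the libraries reached 50 (12368 for *Nqo1*, whose own mean was below 50). *Nqo1* had 0 counts in both libraries of SAT on HFD and 15 to 75 in the chow libraries. Its r values therefore rest on few counts and include libraries at the floor.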

How the data were processed

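RNAseq read counts of 8 libraries (FACS-sorted mG+ cells, 1 library per genotype and condition) were used as deposited. Per the labels, the counts are whole reads per gene, which the authors had aligned with HISAT2 2.0.5 to GRCm38/mm10 according to the submitters' processing notes; the counter, its annotation and its use of strand are not given in the sources used here. Gene names, positions and the gene length came from the same table. Genes averaging 10 counts or more over the libraries were tested with the quasi-likelihood test of edgeR 4.0.16 (R 4.3.3; TMM; condition plus genotype over all 8 libraries, 3 residual degrees of freedom), with Benjamini-Hochberg adjustment over all genes tested and a threshold of 0.05. With 1 library per group, p-values measure only the spread between these libraries after an additive fit, and that spread may be technical. Within a pair, KO over WT ratios carry exact 95% counting intervals and no test. Totals of 6214269 to 18855772 counts put a floor of 3 counts at 0.184 to 0.434 CPM.

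All 10 members were examined in every contrast and pair, but values are printed for only some of them in each. From each pathway list, called genes were named for the contrasts between tissues. Where a list had none, 2 others were named for VAT against SAT only. From the list of oxidases, 1 gene is not reported here. Members and lists were chosen with earlier results of these data known. Alternatives were DESeq2 1.42.0, its size factors or library totals in edgeR, other count filters, fits without the condition or genotype term and leaving out each library or pair. TMM factors from the tested genes alone and the split by gene length were added after the data were seen. The edgeR fit was also run on simulated counts, whose libraries shared a common mean for each unchanged gene. That setting is simpler than these data, and nothing is concluded from it here. Promoter windows came from RefSeq (GRCm38.p6).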

Additional observations from a re-analysis of the deposited data

Results flagged for a closer look

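*Hmox1* moved in opposite directions between conditions in the EC-*Tert*-KO library relative to its WT partner. The log2 ratio was 1.20 in SAT on chow, against -2.04 in SAT on HFD and -2.64 in muscle. Each ratio compares 1 library with 1 other, and the difference between conditions was not tested.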

How the results depend on the processing

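DESeq2 called 19 genes for genotype (1 by edgeR), 1063 for muscle against SAT (215), 2307 genes and 5 members for VAT against SAT (849 and 3), 1255 genes and 2 members for muscle against VAT (343 and 0), and 260 for HFD against chow (0). With no filter on low counts, the counts were 42, 971 (with 1 member), 2100, 1159 (with 2 members) and 317. Without the genotype term, 338 genes were called for muscle against SAT and 539 for muscle against VAT, and without the condition block 0 were called for genotype. Leaving out 1 pair gave 0 to 2 genes for genotype. Leaving out 1 library gave 39 to 1771 genes and 0 to 2 members for muscle against SAT, 108 to 3510 genes and 0 to 4 members for VAT against SAT, 39 to 1264 genes and 0 to 3 members for muscle against VAT, and 0 to 441 genes for HFD against chow. The 0 members called for VAT against SAT came without either VAT library, and the lone library left there was taken to vary like the other groups.

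When a gene had to average 50 counts or more over its pair, those at least 2-fold higher and lower numbered 1023 and 858 in SAT on HFD (2874 and 2593 otherwise), 380 and 200 in VAT (1358 and 1123) and 397 and 311 in muscle (1487 and 1030), and in SAT on chow 2343 were higher (4415). Fewer genes enter these counts.

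Among the fold changes given in the text, the direction turned for the following members, none of which was called in that contrast with all 8 libraries by edgeR. For genotype, library totals gave 0.063 for *Gclm* and 0.061 for *Txnrd1*. Leaving out 1 pair gave -0.21 to 0.14 for *Gclm*, -0.33 to 0.18 for *Txnrd1*, -0.47 to 0.42 for *Srxn1* and -0.41 to 0.10 for *Gpx1*. *Cat* between VAT and SAT was 0.11 with DESeq2 and 0.11 with its size factors in edgeR. Leaving out 1 library gave -0.62 to 0.78 for *Cat*, -0.10 to 0.84 for *Gclm* and -0.023 to 1.04 for *Gclc* in that contrast, and -1.33 to 0.016 for *Cat* between muscle and SAT. Of these fold changes under the alternatives, 322 of 363 kept direction and side of the threshold, as 136 of 156 KO over WT ratios stayed within their intervals. The cause was not tested. The genotype fit pairs the libraries by condition; no further replicate block was fitted, since each group holds replicate number 1 only.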
